A study of Mus musculus with 12 samples.

Results

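The small RNAs described here are the distinct sequences that the authors placed in the 3′ flank of a gene, the stretch just beyond the annotated transcript end, in one library of normal mouse thymocytes. They were every entry with that genic category in the deposited list, on either strand of the gene, and they numbered 1181 of the 54267 sequences in the list. Each sequence was entered once, in 1 row with its gene, chromosome, strand and position, so the counts below are counts of distinct sequences and not of reads or molecules. The list gives no read number, so neither the depth of the library nor the level of any sequence is known. The series compared RNase III-deficient with control cells of 4 types, in 12 libraries with 1 library per cell type and genotype. The library used here is the DN3 control. DN3 thymocytes are T cell precursors at the stage when the T cell receptor β chain is selected. They had been sorted by flow cytometry from the thymus of Lck-cre mice, which express Cre recombinase in the T lineage, backcrossed to C57BL/6 and aged 6 to 7 weeks. RNA of 19 to 30 nt had been isolated from a gel and cloned so that an RNA entered the library only if its 5′ end was phosphorylated and its 3′ end bore a hydroxyl. There is no replicate and no second genic list, so no test was made, and every interval given is a 95% exact (Clopper-Pearson) binomial interval that covers the counting of rows only. Rows of 1 gene often overlap and are not independent.

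Most mRNAs end in a poly(A) tail added after cleavage downstream of a poly(A) signal. The mRNAs of replication-dependent histones do not. They end just past a short conserved stem-loop that is bound by the protein SLBP, and the U7 small nuclear ribonucleoprotein pairs with a purine-rich histone downstream element to direct the cut. The RNA beyond the cut is then degraded by a 5′ to 3′ exonuclease. These genes are expressed in S phase and lie in clusters that hold many near-identical copies, so a short sequence can match more than 1 copy and the assignment of a row to a single histone gene is uncertain.

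Sequences around the histone stem-loop are shown because the 3′ flank rows were concentrated there. The following rows span the stem-loop itself, which is in capitals:
Hist2h3c1: cacaaaGGCTCTTTTCAGAGCCacct
Hist1h2bk: gcaccaaaGGCTCTTTTAAGAGCCac
Hist1h4c: gtcaacaaaaGGCCCTTTTCAGGGCC
The following rows lie just past the stem-loop of their gene, and capitals mark the longest run complementary to the 5′ end of U7 RNA. They were chosen after their runs were seen, 4 with long runs and Hist1h4c with a short one. The Hist2h3c1 row below lies at chr3:96051273 and the one above at chr3:96073052, on separate records of that symbol. Runs were also read on 1 row of each of the 13 genes with at least 5 rows just past the stem-loop. This was the longest row of at most 30 nt. Rows of 31 or 32 nt on Hist1h2ab, Hist1h2ai and Hist2h2ac were left out. The run was 5 bases in 3 genes, 6 in 4, 7 in 4 and 8 in 2:
Hist4h4: aagcatcagaaagGAGCTGTggacatttgt
Hist1h4j: atcttttacagAAGAGCTGacgcttgtt
Hist2h3c1: cttcccggAAAGAGCTattcagctttttgt
Hist1h2bf: aggGAGCTGTtgccagacaccgaatactgt
Hist1h4c: attcctaggagttgttCACTTaccgaa
The first 20 bases of U7 RNA, from the GENCODE M21 transcript of Rnu7, are given for comparison:
Rnu7: aagtgttacagctcttttag

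Replication-dependent histone genes held 585 of the 1181 rows (49.5%, interval 46.6 to 52.4%). In the other categories of the same list their share was 3.13% of the 2811 rows in 3′ UTR exons, 5.29% of the 7228 rows in coding exons, 0.676% of the 7841 rows in 5′ flanks and 0.157% of the 25523 rows in introns. Read the other way, 47.6% of all 1230 rows on histone genes were 3′ flank rows, 31.1% were in coding exons and 7.15% in 3′ UTR exons. Sequences inside a GENCODE M21 transcript of the same gene made up 189 of the 585 histone rows (32.3%), on 22 records. The GENCODE transcripts of the placed histone genes reached 0 to 2515 bases past the stop codon (median 94). How far the shares by category turn on the annotated gene ends was not tested. Rows were found for 61 histone genes, and 50 of these had a 3′ flank row. The sense strand of the gene carried 913 of the 1181 rows (77.3%, interval 74.8 to 79.7%) and the antisense strand 268. The sense share was 91.7% in 3′ UTR exons and 43.2% in 5′ flanks. Within the 3′ flanks it was 91.8% for histone genes (537 of 585 rows) and 63.1% for all other genes (376 of 596 rows). The 3′ flank rows of non-histone genes therefore lay between the 3′ UTR and the 5′ flank rows in their strand balance.

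**Figure D1:**
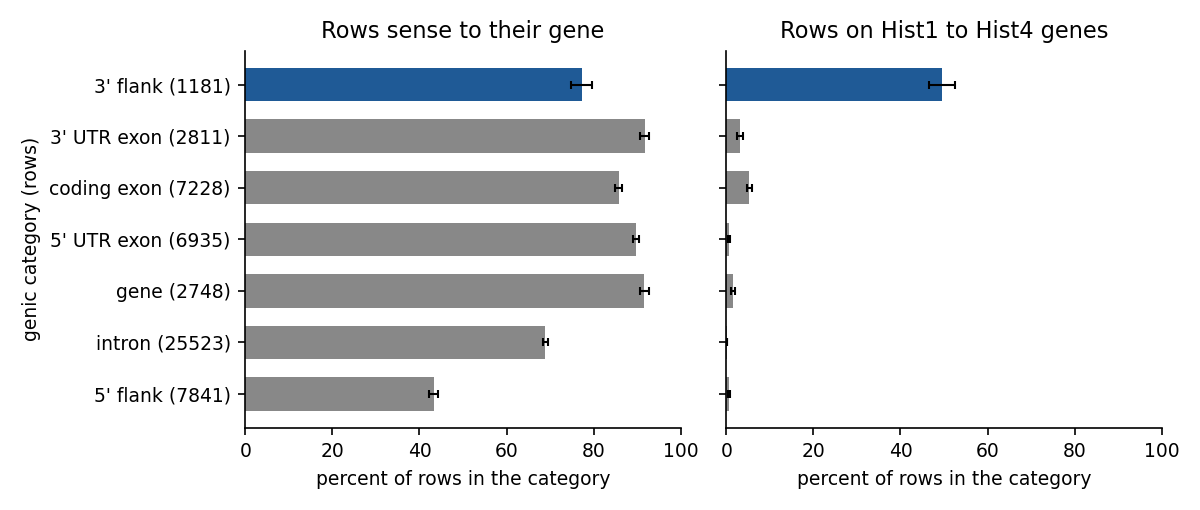
Share of rows on the sense strand (left) and share on the Hist1 to Hist4 histone genes (right), in percent of the rows of each genic category of the DN3 control list. Bars are single values of 1 library, error bars are 95% exact binomial intervals, and the row number is in brackets; histone genes hold 49.5% of 3′ flank rows and at most 5.29% of any other category.

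The 1181 rows fell on 446 gene records, which carry 445 gene symbols. A single row was all that 324 records had, and 32 records had 10 or more rows and together held 45.5% of all rows. Histone genes made up 28 of those 32 records. The largest number was on Hist4h4, a histone H4 gene on chromosome 6, with 28 sense and 7 antisense rows. Hist1h2ak followed with 28 rows, Hist1h2ai with 27 and Hist1h4a with 27. Hist2h3c1, a histone H3 gene, had 18 rows under one accession and 9 under another, so the list places this symbol at 2 positions on chromosome 3. Hist1h2af and Hist2h2ac had 23 rows each, Hist1h2bk and Hist1h3g 22 each, Hist1h4d 19, the linker histone gene Hist1h1b 18 and Hist1h4j 16. The non-histone genes among the 15 largest were Tmem107 (23 rows), Rnu11 (17 rows) and Cstf2t (16 rows).

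**Figure D2:**
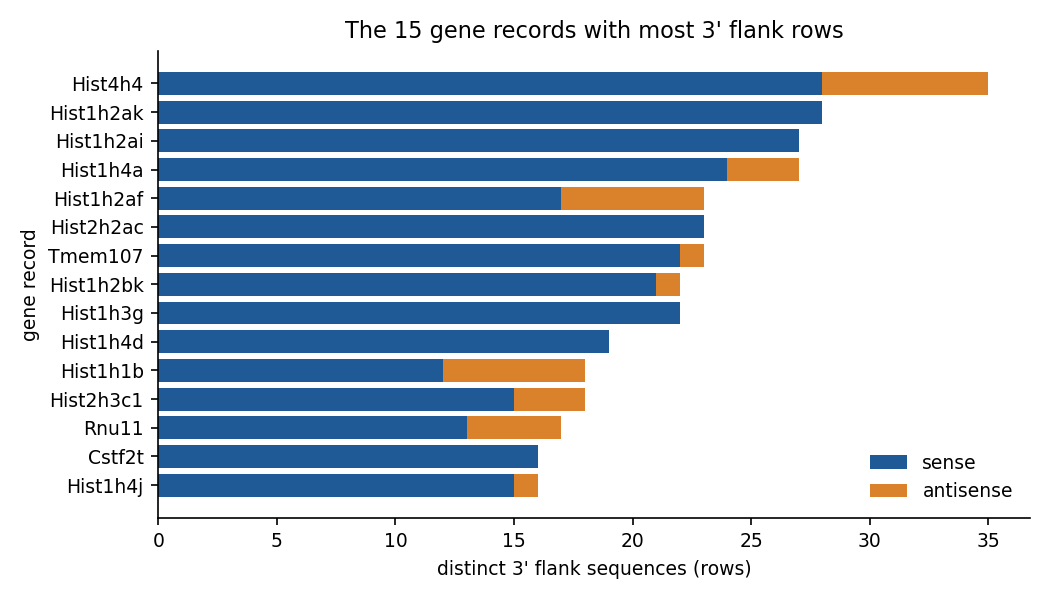
Number of distinct 3′ flank sequences on each of the 15 gene records with most of them, sense in blue and antisense in orange, in 1 library. Hist4h4 has the most, 35, and 12 of the 15 are histone genes.

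All classes of histone gene were present. H2A genes had 173 rows (163 sense) on 13 records, H4 genes 152 rows (138 sense) on 12, H2B genes 129 rows (123 sense) on 11, H3 genes 99 rows (88 sense) on 11 and H1 genes 32 rows (25 sense) on 4. The large Hist1 cluster on chromosome 13 held 462 of the rows, Hist2 on chromosome 3 held 83, Hist4 on chromosome 6 held 35 and Hist3 on chromosome 11 held 5. The linker histone gene Hist1h1c had 114 rows in all, of which 2 were in the 3′ flank. The replacement histone genes H3f3b, H2afz and H2afj, whose mRNAs are polyadenylated, had 5 of their 32 rows (15.6%) in the 3′ flank, against 2.18% of all rows in the file. H3f3b had 3 of its 20 rows in the 3′ flank, H2afz 1 of 8 and H2afj 1 of 4.

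The position of histone rows along their gene was read by finding other or the same rows in the GENCODE M21 transcript of the gene, which gave the start codon, the stop codon and the stem-loop in the coordinates of the list. This placed 463 of the 585 rows, on 37 of the 51 histone records. The check went against the category for a number of rows. Of the 428 placed sense rows, 77 began upstream of the start codon of the same gene, on 19 records, and 44 of these ran across it. The farthest began 68 bases before the start codon and the median was 15 bases. Another 6 rows ran across the stop codon. The other 345 rows (80.6%) began past the stop codon. Rows at the start codon are shown from the 2 H4 genes with the start codon in capitals:
Hist1h4a: ttccattcttcctaagacATGtcgggtcgc
Hist4h4: ttactaatATGtcaggacga
The Hist1h4a row lies at chr13:23853015-23853044 on the minus strand, where it covers the 5′ UTR and the first codons of the gene, and 12 of the 24 placed sense rows of Hist1h4a began upstream of the start codon. For Hist4h4 the number was 5 of 28 and for Hist1h2ak 8 of 28. The rows labelled as 5′ flank on the placed genes, 35 in number, covered a span from 467 to 7 bases before the start codon, so the labels of both flanks met in the same short stretch. How the authors drew the category is not given in the sources used here.

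Past the stop codon the rows were concentrated in a narrow window. Of the 345 sense rows that began there, 172 (49.9%) began 50 to 79 bases beyond the stop codon, on 27 records, 22 began closer and 61 began 300 or more bases beyond. The farthest ended 1075 bases past the stop codon. Rows in the 50 to 79 base window had a median length of 25 nt, and those 300 or more bases beyond had a median of 22 nt.

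**Figure D3:**
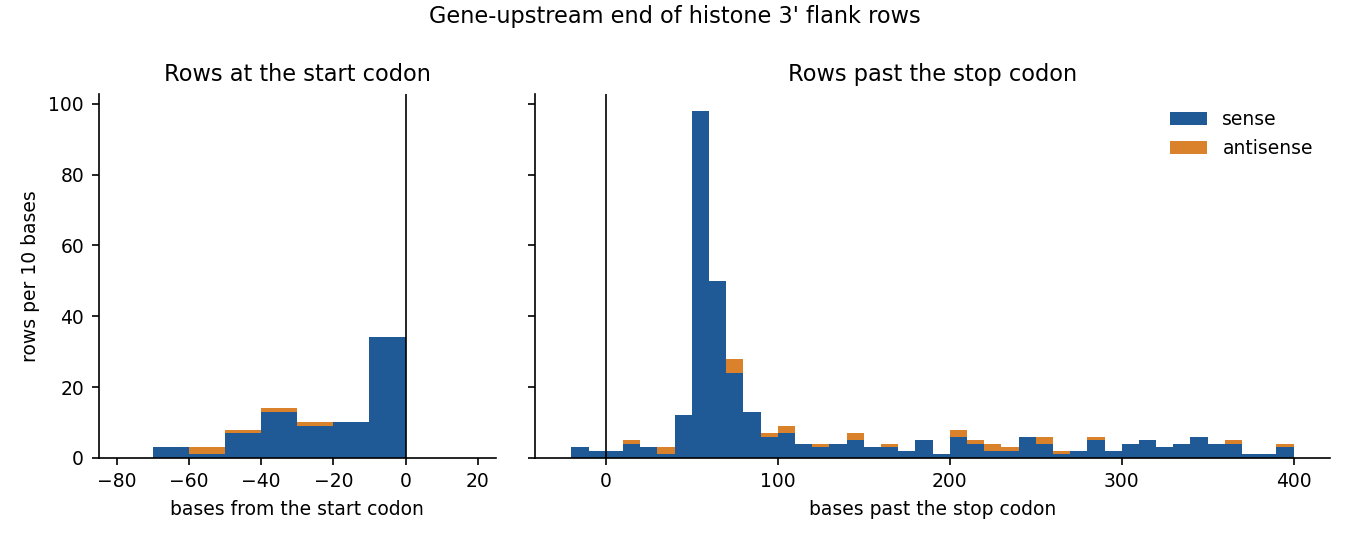
Distance in bases of the gene-upstream end of each placed histone row (the 5′ end of sense rows, blue; the 3′ end of antisense rows, orange) from the first base of the start codon (left, rows that begin before it) or from the stop codon (right), counted per 10 bases over 37 gene records. Rows more than 400 bases past the stop codon (30 rows) are not drawn; the tall bars lie 50 to 79 bases past the stop codon.

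Positions were also measured from the stem-loop, on fewer records and rows. The spread from the stop codon and from the stem-loop was not compared on the same rows. A stem-loop could be located for 28 gene records, with 273 sense rows past the stop codon, and its last base lay 37 to 70 bases past the stop codon (median 46). Of these rows, 138 (50.5%) had from 0 to 19 bases between the stem-loop and their 5′ end, on 19 records. A further 10 rows began before the end of the stem-loop. The complete stem-loop was held by 6 of the 3′ flank rows, all on histone genes, and by 1 row of the other categories. The most frequent 5′ end left 8 bases between stem-loop and row and was shared by 25 rows of 9 records, and 103 of the 138 rows left 7 to 14 bases. The 3′ ends of the 138 rows had quartiles at bases 33 and 37 past the stem-loop. On base 33 to 37 lay 88 of the 138 ends (63.8%), on 18 of the 19 records. That window is the quartile range of these same ends, so the share in it was largely fixed by that choice. By gene, the median 3′ end ran from base 29 to base 42 and lay within 33 to 37 in 15 of 19 records. Hist1h3g and Hist4h4 gave the most such rows, 37 together. Without them 44.1% of the 229 other rows began in the same 20-base window, and 53.5% of those ended on base 33 to 37.

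**Figure D4:**
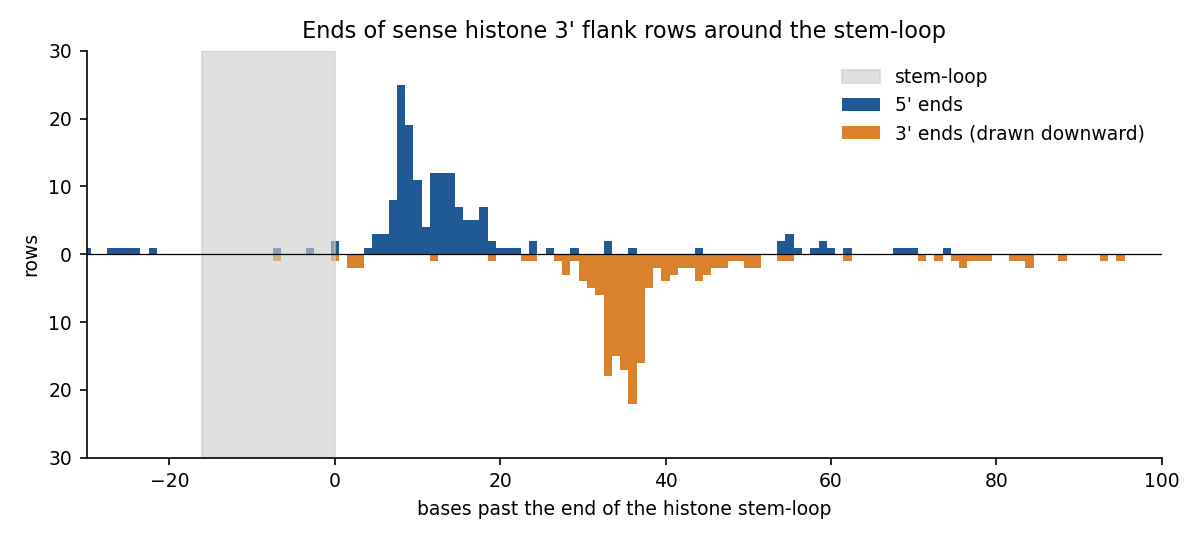
Number of sense histone rows whose 5′ end (upward) and 3′ end (downward) falls at each distance in bases from the end of the stem-loop, over the gene records whose stem-loop was located; the grey band is the stem-loop. The 5′ ends peak at 8 bases, with 25 rows, and the 3′ ends at bases 33 to 37.

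The rows of a single gene in this window overlapped closely. Hist4h4 had 18 rows there, beginning 4 to 14 bases past the stem-loop and ending on base 30 to 37, with a median of 34.5. A set of 5 lengths shared its most frequent 5′ end at chr6:136752510 on the minus strand, and they differ only at the 3′ end, as these 3 show:
Hist4h4, 25 nt: atcagaaaggagctgtggacatttg
Hist4h4, 27 nt: atcagaaaggagctgtggacatttgta
Hist4h4, 29 nt: atcagaaaggagctgtggacatttgtagt
Hist1h3g had 19 rows in the window, ending on base 30 to 37. Hist1h4j had 10, ending on base 32 to 35. Hist1h2bf had 13, ending on base 28 to 46, and Hist1h2ai had 11, ending on base 19 to 47. The 3′ ends on Hist1h2bf and Hist1h2ai thus ranged more widely than those on Hist4h4, Hist1h3g and Hist1h4j. Not every H2A gene had so wide a range, as the 7 rows of Hist2h2ac ended on base 33 to 40. Hist1h2ak, whose stem-loop was not found in its transcript, showed the same nesting, with 6 rows of 23 to 30 nt from a single 5′ end:
Hist1h2ak, 23 nt: acttggaggagttgtgctacttt
Hist1h2ak, 30 nt: acttggaggagttgtgctactttggatcat
Over all sense histone rows, 32.6% shared their 5′ end and 27.7% their 3′ end with another 3′ flank row. For sense rows of other genes the shares were 8.24% and 9.04%. Histone records had 10.7 sense rows each on average, and other records 1.42, with a single sense row in 84.5% of the latter. The part of this row density in the shares was not tested.

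The rows just past the stem-loop also carried runs complementary to U7 RNA. A run of 6 or more bases with perfect Watson-Crick complementarity to the first 20 bases of U7 was present in 116 of the 138 rows (84.1%). It was present in 17.8% of the 399 other sense histone rows, 13.0% of the 376 sense rows of other genes, 10.8% of the 268 antisense rows and 7.28% of the 53086 rows of other categories. The 399 rows include those of histone genes without a located stem-loop, some of which may lie just past one. A run of 8 or more bases was present in 20 of the 138 rows just past the stem-loop and in 0.646% of the rows of other categories. The hexamer AAAGAG is itself complementary to 6 of these U7 bases, so its rows are among those with a run of 6 or more. On the strand of the row, it occurred in 12.3% of the rows just past the stem-loop and 4.01% of the other sense histone rows. In the rows of other categories its share was 1.02%. Rows just past the stem-loop are longer (median 25 nt, against 21 nt for the other categories) and many overlap, and the part of either in these shares was not tested.

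Antisense rows were few on histone genes, 48 on 19 records, and they were shorter, with a median of 19 nt against 23 nt for the sense rows. Among genes with rows on both strands, the less frequent strand had most rows on Hist4h4 (7 antisense), followed by Hist1h1b (6 antisense), Hist1h2af (6 antisense), Hist1h3a (5 antisense) and the U11 gene Rnu11 (4 antisense). On Hist4h4, 6 of the antisense rows lay 35 to 132 bases past the stop codon. Some of them overlapped sense rows, while those at 35 to 61 and 39 to 57 bases overlapped none. Rows on opposite strands overlapped in 120 pairs, drawn from 94 rows of 15 genes, and 117 of the pairs were in histone genes and 62 in Hist4h4 alone. The Hist4h4 pairs repeat a few antisense rows, each set against many nested sense rows. RNase III enzymes leave duplexes with 3′ overhangs of 2 bases, and of the 31 pairs that overlapped by at least 15 bases, 11 of them on Hist4h4, 1 pair on Hist1h1b had that geometry on both sides.

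The lengths of the 3′ flank rows ran from 15 to 32 nt with a median of 22 nt and quartiles of 19 and 25 nt. The commonest single length was 18 nt (167 rows), below the labelled size cut, and 257 rows lay outside 19 to 30 nt. Sense histone rows had a median of 23 nt, and 37.6% of them measured 25 to 30 nt, against 20.7% of the sense rows of other genes, 19.8% of the antisense rows and 21.6% of the rows of other categories. The share of 20 to 24 nt, the range of most miRNAs, was 37.6% for sense histone rows, 47.3% for sense rows of other genes, 36.2% for antisense rows and 39.4% for the rows of other categories. The first base was A in 36.2% of rows, T (U in the RNA) in 25.6% (interval 23.1 to 28.2%), G in 21.1% and C in 17.2%. In 3′ UTR exons T stood first in 27.6% of rows and in 5′ flanks in 1335 of 7841. None of the 1181 sequences occurred among the 1212 distinct sequences of the 3 DN3 miRNA lists.

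**Figure D5:**
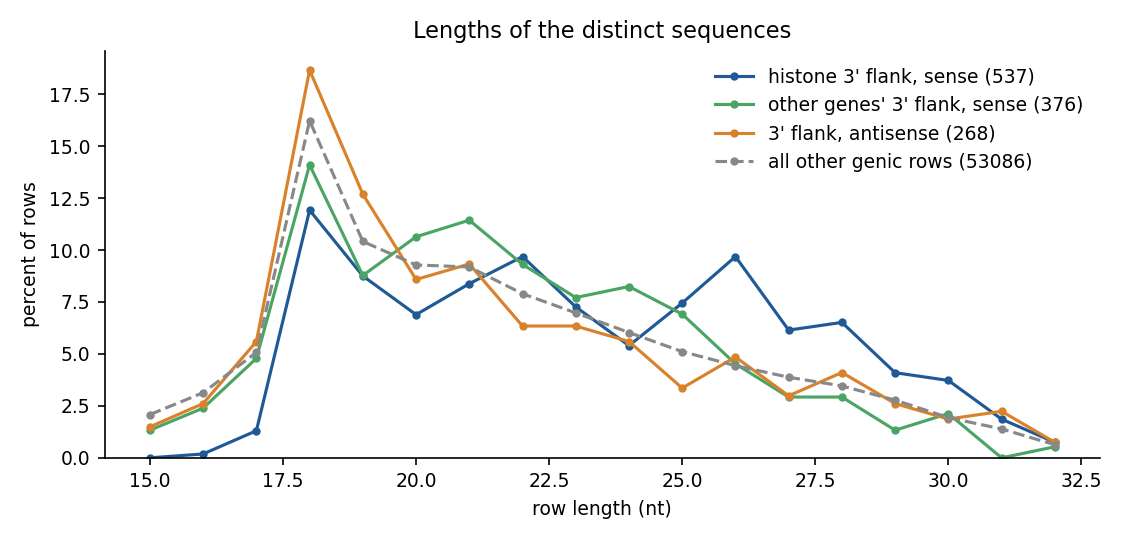
Percent of rows at each length in nt for sense histone 3′ flank rows, sense 3′ flank rows of other genes, antisense 3′ flank rows and all rows of other categories (row numbers in brackets), in 1 library. Every set peaks at 18 nt, and sense histone rows have further rises at 22 and 26 nt, with 52 rows each.

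The rows gathered in clusters. When rows on the same strand with at most 100 bases between neighbours were joined, 756 rows (64.0%, interval 61.2 to 66.8%) fell into 144 clusters of at least 2 rows, and 425 rows stood alone. Clusters took in 94.2% of the histone rows and 34.4% of the other rows. The median cluster spanned 66 bases. The 5 largest were those of Tmem107 (22 rows in 239 bases), Hist1h2ai (22 rows in 221 bases), Hist1h3g (21 rows in 131 bases), Hist4h4 (19 rows in 108 bases) and Hist1h2ak (17 rows in 126 bases).

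Outside the histones, 395 gene records shared 596 rows, and 322 of these records had a single row. The sense strand alone was seen in 245 records, the antisense strand alone in 131 and both in 19. Sequences inside a GENCODE M21 transcript of the same gene made up 192 of the 596 rows. Another 40 rows matched the sense strand of a different gene, 34 matched only the opposite strand of one, and 330 matched no transcript. Where the GENCODE end could be placed, 70 of 217 sense rows began beyond it, at a median of 154.5 bases, and 57 of 103 antisense rows did, at a median of 242 bases. No such row ended more than 500 bases past that end.

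Several non-histone groups lay mostly across or downstream of the ends of other RNAs that are not polyadenylated. Tmem107, which encodes a ciliary membrane protein, carries the U8 small nucleolar RNA gene Snord118 at its 3′ end. Of its 22 sense rows, 1 ran across the 3′ end of Snord118 with 15 bases inside it, and 21 began 7 to 194 bases beyond (median 162). Rnu11, the U11 small nuclear RNA of the minor spliceosome, had 13 sense rows. Of these 1 lay inside the RNA, against its category, and 2 ran across the 3′ end of the RNA. Another 5 began within 20 bases past that end and the farthest ended 458 bases past it. Its 4 antisense rows lay upstream of the U11 gene, against their category. Rnu12, the U12 small nuclear RNA, had 4 sense rows, the nearest 48 bases past its end. Rmrp, the RNA of RNase MRP, had 5 sense rows, of which 4 ran across its end by at most 4 bases and 1 ended before it.

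Antisense rows of some genes matched the sense strand of, or lay near, small RNA genes. Of the 8 antisense rows of BC046404, 7 lay on Snord65 or across its 5′ end. The 10 antisense rows of Hes7, a transcriptional repressor of the segmentation clock, lay within 107 bases at chr11:68936968-68937074, and RefSeq places the transfer RNA gene n-TRtct4 within the span of Hes7 (GRCm38.p6). The heptamer GGTTCGA, part of an internal tRNA promoter element, was in 2 of these rows, in no other 3′ flank row and in 25 of the 53086 rows of other categories, searched on the strand of the row. It is in capitals here:
Hes7: tgGGTTCGAatcccaccagagtcggttt

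Some single-gene groups also had exact matches elsewhere or low complexity. The 5 sense rows of Tmem38b, an endoplasmic reticulum potassium channel gene, shared a 3′ end, and all but their last 2 bases equal the 3′ end of the 5S ribosomal RNA Rn5s, which has many near-identical copies, so their origin is uncertain:
Tmem38b, 18 nt: ccgggtgctgtaggcttg
Tmem38b, 25 nt: gggaataccgggtgctgtaggcttg
The 16 rows of Cstf2t, a retrogene paralogue of the cleavage stimulation factor CstF-64, lay within 24 bases at chr19:31161458-31161481 and had 6 different 5′ ends and 8 different 3′ ends. All ended in a run of A (capitals), 3 to 10 long:
Cstf2t, 16 nt: aatttcggttgggAAA
Cstf2t, 23 nt: aatttcggttgggAAAAAAAAAA
All 16 rows, A runs included, match the GENCODE transcript of Cstf2t without a mismatch. The 5 sense rows of Myl6b, a myosin light chain gene, matched the transcript of its neighbour Myl6.

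Of all 11185 gene records in the file, 3.99% had a 3′ flank row, and the gene lists are set beside that share. Of 25 T lineage genes listed, 21 had a row anywhere in the file and 1 had a 3′ flank row. This was Cd3d, a chain of the T cell receptor complex, with 1 sense and 3 antisense rows. Among the markers of other cells, rows anywhere in the file were present for 2 of 6 B lineage genes, 1 of 6 myeloid, 1 of 6 erythroid and 1 of 5 thymic epithelial genes, with no 3′ flank row for any of them. A row shows that a sequence was cloned and not how often. Ribosomal protein genes named Rpl or Rps with a number, 78 of which had rows, gave 15 3′ flank rows on 9 genes, led by Rpl41 with 4. Rpsa, which falls outside that name pattern, had 1 sense row in the 3′ flank and is not in these counts. The host genes of small nucleolar RNAs were listed by the names Snhg and Gas5 only, 7 in number, all with rows in the file. Among these 7, Snhg3 alone had a 3′ flank row, 1 in number. Hosts under other names were not counted, nor was the 1 row of Snord22 that matched the transcript of Snhg1. Of 12 listed genes for 3′ end processing, 11 had a row in the file. Among them Cpsf2, a subunit of the cleavage and polyadenylation factor, had 1 3′ flank row. Of the RNase III and small RNA pathway genes, 7 of the 14 listed symbols had a row in the file and none had a 3′ flank row. A list of 7 genes is too short to tell its count from the share over all records.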

How the data were processed

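One deposited list of the DN3 control library was used. The authors deposited 1 distinct sequence per row with its gene, strand, genic category and start and end positions, which are other values and neither counts nor levels. Start is 0-based in that list (13 of 13 rows whose GRCm38 position lay within 1 base of the list's were shifted by 1) and positions are printed 1-based. The sources used here name neither the aligner nor the category rule nor the genome build, which differs from GRCm38. The DN3 miRNA lists hold scores deposited by the authors, of which only the sequences were compared. Rows were grouped, clustered at gaps of at most 100 bases and matched to GENCODE M21 transcripts and RefSeq names (436 of 446 accessions matched) with Python 3.11.15, pandas 2.3.3 and scipy 1.17.1. Ends of small RNA genes were matched over at least 12 bases. Placement was tested on simulated data, with 200 of 200 genes placed correctly. Genes named were the 15 with most rows, the 5 with most rows on the less frequent strand, those of the 5 largest clusters and members of the lists; the other genes were chosen after their values were seen. The members and lists were chosen with earlier results of these data known.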

Additional observations from a re-analysis of the deposited data

How the results depend on the processing

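No paired analysis was possible because there is 1 library and no test. Of 37 alternative values, 30 stayed within the interval of the reported value, or within 1.5 times for gene numbers, and 7 did not. Each sequence occurs in a single row, so counting distinct sequences once changed nothing. With each gene counted once by the strand of most of its rows, the sense share was 68.6%. With rows of 20 to 24 nt only, 477 in number, the share of rows in clusters was 51.4% and the number of gene records 232. The part of row number and of the mix of genes in these values was not tested. A gap of 500 bases gave a clustered share of 70.2%, and 122 gene records had at least 2 rows. Without histone genes, an alternative chosen after seeing the data, the sense share was 63.1% and the clustered share 34.4%. Without the histone rows that begin upstream of the start codon, also chosen after seeing the data, the sense share was 75.7%. The library's depth is unknown, so an absent sequence may be below detection.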
